A study of Homo sapiens with 4 samples.

Results

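The genes described here are 9 components of the RB pathway in human bladder cancer cells: RB1, which encodes the retinoblastoma protein, the CDK inhibitor genes CDKN2A, CDKN2B and CDKN1B, the kinase genes CDK4 and CDK6, and the D cyclin genes CCND1, CCND2 and CCND3. They were found by Ensembl ID, 9 of the 60617 gene IDs measured. Polyadenylated RNA was sequenced from the lines T24 and 5637, both established from human urinary bladder carcinomas. The 4 groups were T24 given protodioscin, a steroidal saponin of plants such as yam, at 60 µM for 6 h, untreated T24, 5637 given protodioscin at 70 µM for 6 h, and untreated 5637, with 1 library each. The dose unit is that of the sample titles, since the treatment protocol writes millimolar. The labels name no vehicle and no separate cultures, so p-values below apply only to these 4 libraries and measure no spread between cultures.

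In dividing cells, D cyclins bind CDK4 and CDK6, and the active kinases phosphorylate the retinoblastoma protein, which then lets go of E2F transcription factors that switch on genes of DNA replication. INK4 inhibitors such as those of CDKN2A and CDKN2B bind CDK4 and CDK6, whereas p27, the product of CDKN1B, binds cyclin-CDK complexes, chiefly those of CDK2. The pathway is often broken in bladder cancer, by loss of RB1 or of CDKN2A or by gain of CCND1 or E2F3, and the 5637 line is known for lacking functional retinoblastoma protein. Cells without that protein are known to hold high levels of p16INK4a, a product of CDKN2A.

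CDKN2A has more than 1 transcription start, and these are shown because its value joins transcripts of different proteins: the upstream start gives p14ARF, which inhibits the ubiquitin ligase MDM2, and the downstream start gives p16INK4a. Both windows are from RefSeq (GRCh38.p14, minus strand), each reaching from 250 bases before to 50 bases after the start, and are written 5′ to 3′ in that strand. Capitals mark matches, on either strand, to the SP1 box GGGCGG or to the E2F motif TTTNNCGC.
CDKN2A, upstream start, chr9:21995275-21995574: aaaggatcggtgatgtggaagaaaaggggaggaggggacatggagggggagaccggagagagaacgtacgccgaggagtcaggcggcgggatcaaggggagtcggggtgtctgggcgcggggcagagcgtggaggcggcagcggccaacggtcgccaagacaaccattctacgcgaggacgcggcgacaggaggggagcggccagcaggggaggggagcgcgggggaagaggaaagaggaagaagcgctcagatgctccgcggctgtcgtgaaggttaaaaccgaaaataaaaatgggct
CDKN2A, downstream start, chr9:21974808-21975107: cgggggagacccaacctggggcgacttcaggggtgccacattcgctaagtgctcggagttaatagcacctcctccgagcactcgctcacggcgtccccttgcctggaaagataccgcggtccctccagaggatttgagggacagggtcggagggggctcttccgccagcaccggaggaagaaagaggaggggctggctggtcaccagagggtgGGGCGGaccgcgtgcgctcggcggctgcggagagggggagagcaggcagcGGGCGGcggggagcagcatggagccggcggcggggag
The downstream window held 2 matches to GGGCGG, the upstream window none, and neither held TTTNNCGC. Over all 35116 RefSeq windows of this length, 44.95% held GGGCGG and 6.89% held TTTNNCGC. T24 is known from work on DNA methylation as a line in which the p16INK4a start is silenced, and the gene-level values below do not tell from which start the reads came.

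Values were the authors' deposited FPKM (fragments scaled to transcript length and to library size), which allows levels of different genes to be compared. A level of at least 1 FPKM was seen for 11941 to 12405 genes per library. The most frequent low value put 1 fragment on a 1 kb transcript at 0.0344 to 0.0493 FPKM, and the relative depths at 1.30 for protodioscin-treated T24, 1.20 for protodioscin-treated 5637 and 1.43 for untreated 5637, with untreated T24 as 1. Mitochondrial transcripts held 3.74% of the FPKM sum in treated and 4.50% in untreated T24, and 11.9% in treated and 9.84% in untreated 5637; their part in the results below was not tested. Of 6 epithelial markers, 5 reached 1 FPKM in both T24 libraries and 6 in both 5637 libraries, with CDH1 listed at 0 in treated T24 and at 0.0160 FPKM in untreated T24. The 4 leukocyte markers were all under 1 FPKM in every library. Of 5 fibroblast markers, DCN and LUM were at 0 in every library, and COL1A1 was at 0.870 and 0.900 FPKM in treated and untreated T24, and at 7.52 and 6.81 FPKM in treated and untreated 5637. The summed level of the epithelial list was 1571 FPKM in treated and 1973 FPKM in untreated T24, and 3414 FPKM in treated and 3959 FPKM in untreated 5637; the part of this in the line differences below was not tested.

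Both lines held transcripts of 7 of the 9 genes at 1 FPKM or more in both libraries, and parted at RB1. T24 reached this level for 8 members, all but CCND2, and 5637 for 7, all but RB1 and CCND2, where 19.3% of all IDs reached it in T24 and 20% in 5637. At a threshold of 0.5 FPKM, which RB1 in 5637 just passed, both lines counted 8. Both also counted 8 at a threshold of 1 when every library was scaled to the same sum (TPM scaling). CCND1 was the most abundant member in every library, and CCND2 the least. In both T24 libraries CDK4 came next, followed by CDKN2A and RB1, whereas in both 5637 libraries CDKN2A came next, followed by CDK4 and CDK6. CCND1 stood above 97.9% of the genes at 1 FPKM or more in treated T24, 98.7% in untreated T24, 99.0% in treated 5637 and 99.0% in untreated 5637. In T24 CDKN1B and CCND3 changed places between the libraries, at 27.7 and 27.6 FPKM in treated and at 23.4 and 28.2 FPKM in untreated cells, so their order was not fixed there.

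**Figure D1:**
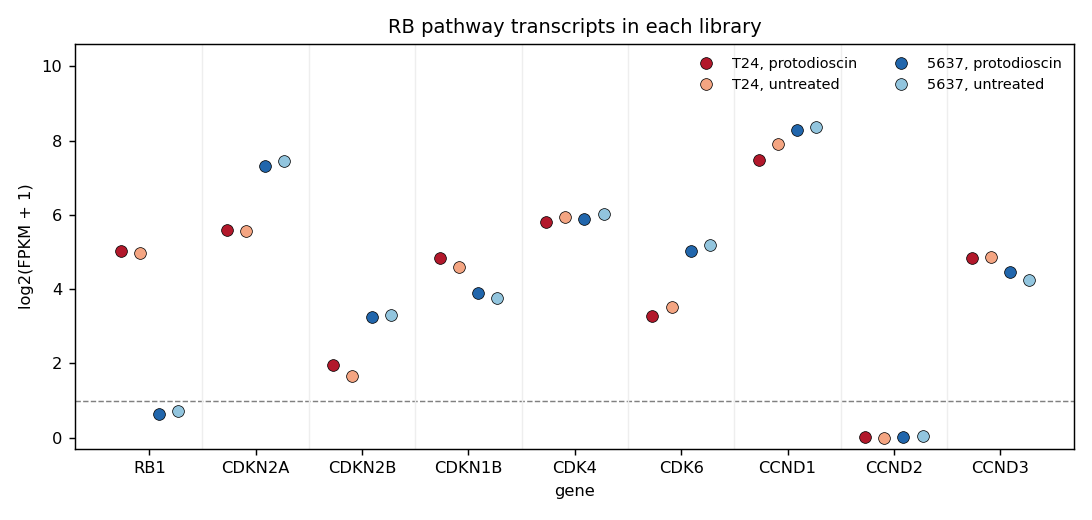
Level of each gene as log2(FPKM + 1), 1 point per library (red, T24; blue, 5637; dark, protodioscin; light, untreated); the dashed line is 1 FPKM. RB1 lies above the line in both T24 libraries (31.6 and 30.4 FPKM) and below it in both 5637 libraries (0.554 and 0.643 FPKM), and CCND2 lies near 0 in all 4.

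RB1 was high in T24 and nearly absent from 5637. RB1 (ENSG00000139687) lies on the plus strand of chromosome 13, from 48303726 to 48599436 (GRCh38, as all positions here). Its level was 31.6 FPKM in treated and 30.4 FPKM in untreated T24, against 0.554 FPKM in treated and 0.643 FPKM in untreated 5637. Both T24 libraries lay far above both 5637 libraries, and the mean of T24 was 51.8 times that of 5637. The low level in 5637 was still above 0, at roughly 64.5 fragments in the treated and 89.6 in the untreated library, as estimated from FPKM, the longest annotated transcript and the worth of 1 fragment. Line and treatment were both terms of a limma fit over the 4 libraries, in which the T24 minus 5637 difference was 4.32 on the log2(FPKM + 1) scale (SE 0.095, limma adjusted p = 1.26e-06). Genes entered the fit if 2 or more libraries reached 1 FPKM, and RB1 did so through T24 alone. Of the 12893 genes in the fit, 77 (0.597%) had an absolute difference at least as large, against 6.66% for that of CDKN2A and 7.46% for that of CDK6. In bulk RNA such as this, fewer cells with a transcript and less of it per cell cannot be told apart.

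The other pocket proteins, p107 (RBL1) and p130 (RBL2), which bind E2F factors as the retinoblastoma protein does, were expressed in both lines. RBL1 was at 17.1 FPKM in treated and 14.9 FPKM in untreated T24, and at 10.5 FPKM in treated and 9.41 FPKM in untreated 5637. RBL2 was at 14.9 and 14.4 FPKM in treated and untreated T24, and at 10.5 and 9.23 FPKM in treated and untreated 5637. Both were higher in T24, RBL1 by 0.63 (limma adjusted p = 0.000588) and RBL2 by 0.53 (adjusted p = 0.00166) on the log2 scale. RB1 made up 49.7% and 50.9% of the summed FPKM of the 3 genes in treated and untreated T24, and 2.57% and 3.33% in treated and untreated 5637.

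The INK4 genes CDKN2A and CDKN2B, which are neighbours on chromosome 9, were both lower in T24 than in 5637, and CDKN1B was higher in T24. CDKN2A (ENSG00000147889, 21967753 to 21995301) was at 46.9 FPKM in treated and 46.4 FPKM in untreated T24, against 158 FPKM in treated and 174 FPKM in untreated 5637. The groups did not overlap, and the difference was -1.81 on the log2 scale (SE 0.066, limma adjusted p = 5.7e-06), a mean 3.56 times higher in 5637. CDKN2A shares exons with CDKN2B-AS1 on the opposite strand, whose reads these unstranded libraries cannot tell apart; that gene was at 0.840 to 1.16 FPKM. CDKN2B, which encodes p15INK4b (ENSG00000147883, 22002903 to 22009363), was at 2.90 FPKM in treated and 2.18 FPKM in untreated T24, against 8.58 FPKM in treated and 8.92 FPKM in untreated 5637. Its difference was -1.47 (SE 0.118, limma adjusted p = 0.000115). CDKN2A and CDKN2B transcripts share an identical stretch of 80 bases in GENCODE 29, within which fragments of one could be counted for the other.

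CDKN1B (ENSG00000111276, chromosome 12, 12715058 to 12722371) was at 27.7 FPKM in treated and 23.4 FPKM in untreated T24, against 14.0 FPKM in treated and 12.6 FPKM in untreated 5637. Both T24 libraries lay above both 5637 libraries, with a difference of 0.89 (SE 0.072, limma adjusted p = 0.000119) and a mean 1.92 times higher in T24. For p27, whose protein level is set largely by degradation, the ubiquitin ligase genes were measured as well. SKP2, which recognises p27 for degradation, was at 13.9 and 14.9 FPKM in treated and untreated T24, and at 23.7 and 28.0 FPKM in treated and untreated 5637 (difference -0.80, limma adjusted p = 0.000204). CUL1, the scaffold of the same ligase, was at 19.5 and 19.3 FPKM in treated and untreated T24, and at 36.9 and 41.8 FPKM in treated and untreated 5637 (-0.98, adjusted p = 9.62e-05). CKS1B, which helps SKP2 to bind p27, was at 63.4 to 65.6 FPKM in all 4 libraries. RBX1, the RING subunit of the ligase, was higher in T24, at 18.7 and 19.9 FPKM in treated and untreated cells, against 14.3 and 14.0 FPKM in treated and untreated 5637 (0.42, adjusted p = 0.00312).

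The kinase CDK6 was lower in T24 than in 5637, and its relative CDK4 overlapped between them. CDK6 (ENSG00000105810, chromosome 7, 92604921 to 92836594) was at 8.70 FPKM in treated and 10.4 FPKM in untreated T24, against 31.5 FPKM in treated and 35.4 FPKM in untreated 5637. The groups did not overlap, and the difference was -1.71 (SE 0.071, limma adjusted p = 9.64e-06). CDK4 (ENSG00000135446, chromosome 12, 57747727 to 57756013) was at 55.0 FPKM in treated and 60.9 FPKM in untreated T24, against 58.6 FPKM in treated and 64.5 FPKM in untreated 5637. The difference of -0.086 did not pass the test (limma adjusted p = 0.236, 95% interval -0.23 to 0.059). CDK4 shares exons with TSPAN31 on the opposite strand, which was at 3.51 to 5.25 FPKM. CDK6 was 13.7% and 14.6% of the summed FPKM of both kinases in treated and untreated T24, and 35.0% and 35.5% in treated and untreated 5637.

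Among the D cyclins, CCND1 dominated in both lines, CCND3 was a minor part, and CCND2 was barely detected. CCND1 (ENSG00000110092, chromosome 11, 69641087 to 69654474) was at 177 FPKM in treated and 239 FPKM in untreated T24, against 312 FPKM in treated and 331 FPKM in untreated 5637. All T24 values lay below the 5637 values, and the difference was -0.64 (SE 0.093, limma adjusted p = 0.00133). It was -0.82 in the treated and -0.47 in the untreated libraries, so the size differed by more than 1.5 times between the pairs. LTO1, which shares exons with CCND1 on the opposite strand, was at 8.31 to 14.3 FPKM. CCND3 (ENSG00000112576, chromosome 6, 41934933 to 42050357) was at 27.6 FPKM in treated and 28.2 FPKM in untreated T24, against 21.0 FPKM in treated and 18.0 FPKM in untreated 5637. It was higher in T24 by 0.50 (SE 0.082, limma adjusted p = 0.00228), with 0.38 in the treated and 0.62 in the untreated libraries.

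CCND2 (ENSG00000118971, chromosome 12, 4273772 to 4305350) was at 0.00595 FPKM in treated T24 and listed at 0 in untreated T24, and at 0.0111 FPKM in treated and 0.0237 FPKM in untreated 5637. The highest of these equals roughly 4.46 fragments, so no difference could be read at this depth, and CCND2 did not enter the fit. CCND1 made up 86.5% and 89.5% of the D cyclin sum in treated and untreated T24, and 93.7% and 94.8% in treated and untreated 5637. The longest identical stretches between D cyclin transcripts were 15 to 23 bases.

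**Figure D2:**
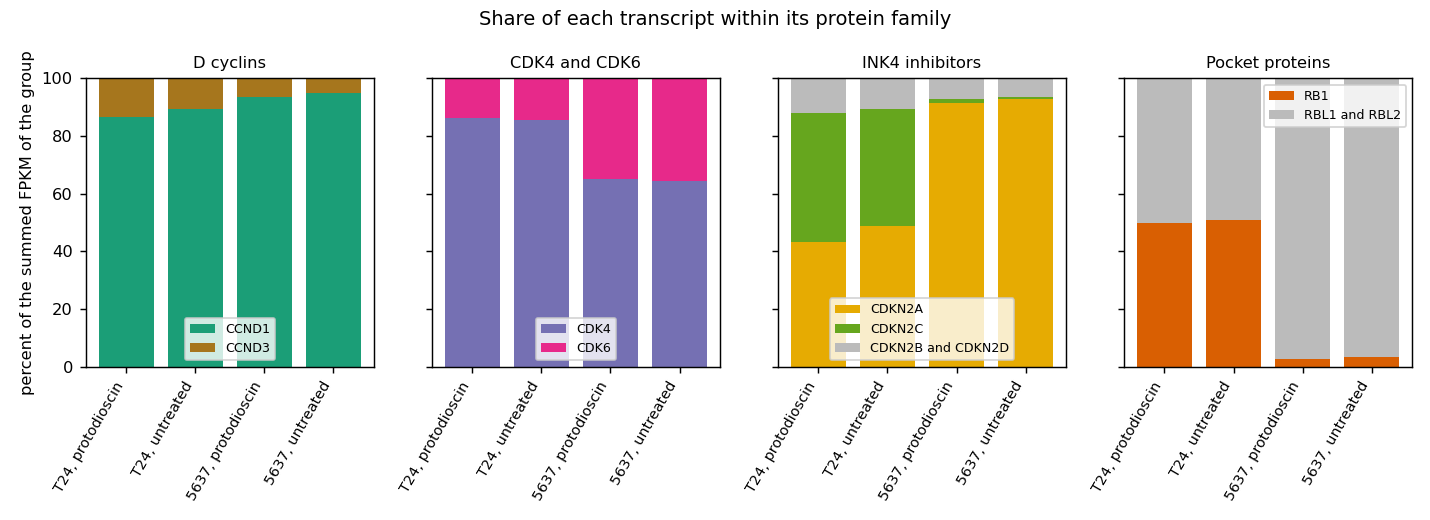
Share of each gene in the summed FPKM of its family (percent) in each library: D cyclins, CDK4 and CDK6, INK4 inhibitors, and pocket proteins. CCND2 is too small to show, and the value of CDKN2A joins transcripts of p16INK4a and p14ARF. CDK6 takes 35.0% and 35.5% of its pair in the 5637 libraries and 13.7% and 14.6% in the T24 libraries, and RB1 takes 2.57% and 3.33% of the pocket proteins in 5637 and 49.7% and 50.9% in T24.

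Of the 9 members, 8 entered the fit, and 7 of these differed between the lines at a limma adjusted p below 0.05, 3 higher and 4 lower in T24. The same threshold was passed by 68.9% of all genes in the fit, so most genes differed between these lines. At a difference of 1 or more on the log2 scale as well, 4 members passed (RB1, CDKN2A, CDKN2B and CDK6), against 18.9% of all genes, 8.09% higher and 10.8% lower. RB1 could enter the fit only by being high in T24, and without it 6 of the other 7 differed and 3 did so by 1 or more. The median absolute difference was 1.18 over the 8 members, 0.89 without RB1, and 0.43 over all genes. With a pseudocount of 5 in place of 1, the difference of CDKN2B was -0.87, under this size.

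**Figure D3:**
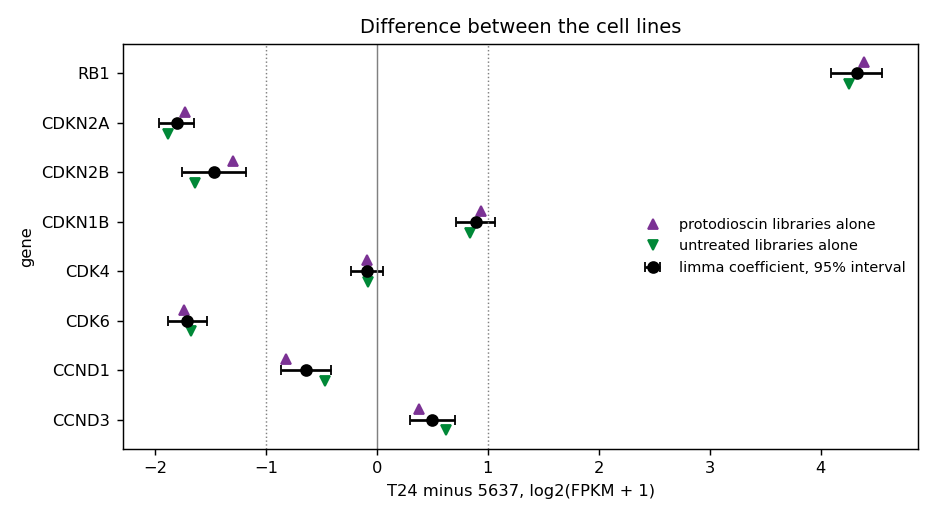
T24 minus 5637 difference on the log2(FPKM + 1) scale for the 8 genes in the fit, with the limma coefficient and its 95% interval (black) and the values from the protodioscin and the untreated libraries alone (triangles); dotted lines mark a difference of 1. RB1 stands at 4.32, CDKN2A, CDKN2B and CDK6 lie below -1, and the interval of CDK4 crosses 0.

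Of the other 4 INK4 and CIP/KIP inhibitors, CDKN2C and CDKN2D were higher and CDKN1C lower in T24, and CDKN1A was not called. CDKN2C, which encodes p18INK4c, was at 48.4 FPKM in treated and 38.7 FPKM in untreated T24, against 2.19 FPKM in treated and 1.003 FPKM in untreated 5637 (difference 4.13, limma adjusted p = 2.17e-06). CDKN2D, which encodes p19INK4d, was at 10.0 and 7.91 FPKM in treated and untreated T24, and at 3.84 and 3.08 FPKM in treated and untreated 5637 (1.16, adjusted p = 0.000115). CDKN2A thus took 43.3% and 48.7% of the summed INK4 FPKM in treated and untreated T24. In treated and untreated 5637 it took 91.5% and 93.0%, while CDKN2C took 44.8% and 40.7% in treated and untreated T24. The value of CDKN2A joins transcripts of p16INK4a and p14ARF, so its share is not that of p16INK4a alone. CDKN1C, which encodes p57, was at 0.453 and 0.288 FPKM in treated and untreated T24, and at 3.85 and 5.46 FPKM in treated and untreated 5637, so that it entered the fit through 5637 alone. CDKN1A, which encodes p21, was at 54.2 and 30.4 FPKM in treated and untreated T24 and at 53.01 and 56.9 FPKM in treated and untreated 5637, and the lines overlapped (-0.43, adjusted p = 0.098).

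Among the E2F factors, E2F3 stood out between the lines. E2F3, an activating E2F, was at 6.56 FPKM in treated and 7.01 FPKM in untreated T24, against 108 FPKM in treated and 111 FPKM in untreated 5637. The mean was 16.1 times higher in 5637, and the difference was -3.83 (SE 0.065, limma adjusted p = 6.01e-07), a value reached or undercut by 0.613% of all genes. E2F1, also an activator, was higher in T24, at 13.7 and 13.8 FPKM in treated and untreated cells, against 9.28 and 8.08 FPKM in treated and untreated 5637 (0.61, adjusted p = 0.00122). Of the 12 genes for pocket proteins, E2F factors and their partners beyond RB1, 5 were called higher and 4 lower in T24. Of all genes, 35.1% were called higher and 33.9% lower. Without E2F2 the list had 4 higher and 4 lower of 11. E2F3 was the one at 1 or more on the log2(FPKM + 1) scale. E2F2, the remaining activator, entered the fit through T24 alone, at 1.34 and 1.47 FPKM in treated and untreated T24 and 0.546 and 0.440 FPKM in treated and untreated 5637 (0.69), with a mean 2.85 times higher in T24. E2F3 took 30.3% and 31.5% of the summed FPKM of E2F1, E2F2 and E2F3 in treated and untreated T24, and 91.7% and 92.9% in treated and untreated 5637.

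The window at the first RefSeq start of E2F3 is shown because E2F factors are known to bind the promoters of their own family. It held 1 match each to TTTNNCGC, read on the opposite strand, and to GGGCGG, both in capitals. A window at the next start of E2F3 held 3 matches to GGGCGG and none to TTTNNCGC. None of the 11 windows found for 7 members held TTTNNCGC; CCND1 and CCND2 had no window, and that of RB1 lay inside the gene, away from its annotated start, so no promoter of these 3 genes was searched.
E2F3, first start, GRCh38.p14, plus strand, chr6:20401629-20401928: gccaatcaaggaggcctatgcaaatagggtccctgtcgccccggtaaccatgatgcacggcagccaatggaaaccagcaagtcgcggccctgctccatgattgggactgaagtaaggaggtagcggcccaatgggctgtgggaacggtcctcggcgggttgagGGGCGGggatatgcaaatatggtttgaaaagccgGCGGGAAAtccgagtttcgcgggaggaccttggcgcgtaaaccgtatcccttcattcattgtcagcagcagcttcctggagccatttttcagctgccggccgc

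Most genes measured downstream of the pathway differed between the lines, in both directions. CCNE1, which encodes cyclin E1 and is itself an E2F target, was lower in T24, at 4.01 and 3.84 FPKM in treated and untreated cells, against 17.8 and 16.5 FPKM in treated and untreated 5637 (-1.88, limma adjusted p = 1.3e-05). CCNE2, at 5.99 and 5.81 FPKM in treated and untreated T24 and 10.9 and 9.02 FPKM in treated and untreated 5637, was lower in T24 too (-0.66, adjusted p = 0.00133). CCNA2, which encodes cyclin A2, was higher in T24, at 58.7 and 56.1 FPKM in treated and untreated cells, against 43.2 and 39.8 FPKM in treated and untreated 5637 (0.46, adjusted p = 0.000908), and CDK2, the partner of both cyclins, was not called (adjusted p = 0.13). Of 16 E2F-regulated replication genes, 12 were higher and 3 lower in T24, where 35.1% and 33.9% of all genes were. The median difference was 0.47, against 0.014 over all genes, and the 3 lower genes were MCM6, MCM7 and CDC6. TYMS, the thymidylate synthase, was at 62.6 and 66.1 FPKM in treated and untreated T24, and at 26.2 and 25.5 FPKM in treated and untreated 5637 (1.28, adjusted p = 2.05e-05). TK1, the thymidine kinase, was at 98.8 and 103 FPKM in treated and untreated T24, and at 53.7 and 47.6 FPKM in treated and untreated 5637 (0.98, adjusted p = 9.41e-05). The 3 genes of the CDK-activating kinase ranged from -0.30 (MNAT1) to 0.41 (CCNH).

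The position of the genes on their chromosomes was compared with the line difference of their neighbours. Of 8 neighbours of RB1, 6 entered the fit and all 6 were higher in T24, by 0.31 to 1.06 on the log2 scale, with FNDC3A at 17.6 and 18.1 FPKM in treated and untreated T24 and 8.17 and 7.86 FPKM in treated and untreated 5637. Of all genes, 35.1% were called higher in T24. RCBTB2 could enter only by being high in T24, at 2.44 and 2.07 FPKM in treated and untreated cells, against 0.796 and 0.650 FPKM in treated and untreated 5637, and without it the count was 5 of 5. None of the 6 differed as much as RB1. LPAR6, a receptor gene that lies inside the annotated span of RB1, did not enter the fit and was at 0.441 and 0.406 FPKM in treated and untreated T24, and at 1.05 and 0.929 FPKM in treated and untreated 5637.

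Of 8 neighbours of CDKN2A and CDKN2B, 6 entered the fit and 5 were lower in T24, where 33.9% of all genes were called lower. ELAVL2 and MLLT3 entered through 5637 alone and could only be lower in T24, and without them the count was 3 of 4. MTAP, a methionine salvage enzyme next to CDKN2A, was at 7.36 and 8.57 FPKM in treated and untreated T24, and at 21.2 and 22.1 FPKM in treated and untreated 5637 (-1.34, limma adjusted p = 3.71e-05). ELAVL2, a neuronal RNA-binding protein gene, was at 0.0521 and 0.0447 FPKM in treated and untreated T24, and at 12.7 and 13.6 FPKM in treated and untreated 5637. CDKN2B-AS1, an antisense RNA gene that overlaps them, was not called (-0.11, limma adjusted p = 0.426).

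The neighbours of CCND1 showed no common direction, with 2 higher and 3 lower in T24 of the 7 in the fit, where 35.1% and 33.9% of all genes were. Without ANO1 it was 2 higher and 2 lower of 6. ANO1, a chloride channel gene that entered through 5637 alone, was listed at 0 in treated and at 0.02 FPKM in untreated T24, and was at 136 and 173 FPKM in treated and untreated 5637. The neighbours of E2F3 were chosen after its value was seen, so no test result is given for them. Around E2F3, values lay in both directions. CDKAL1 was at 5.38 and 4.46 FPKM in treated and untreated T24, and at 65.5 and 58.7 FPKM in treated and untreated 5637. SOX4, on the far side of CDKAL1, was at 12.7 and 12.0 FPKM in treated and untreated T24, and at 113 and 122.8 FPKM in treated and untreated 5637. MBOAT1, on the other side of E2F3, was at 3.15 and 2.93 FPKM in treated and untreated T24, and at 3.54 and 3.44 FPKM in treated and untreated 5637. Beyond MBOAT1, DEK was at 143 and 129 FPKM in treated and untreated T24, and at 83.1 and 72.0 FPKM in treated and untreated 5637, and ID4 stayed under 0.3 FPKM in every library.

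**Figure D4:**
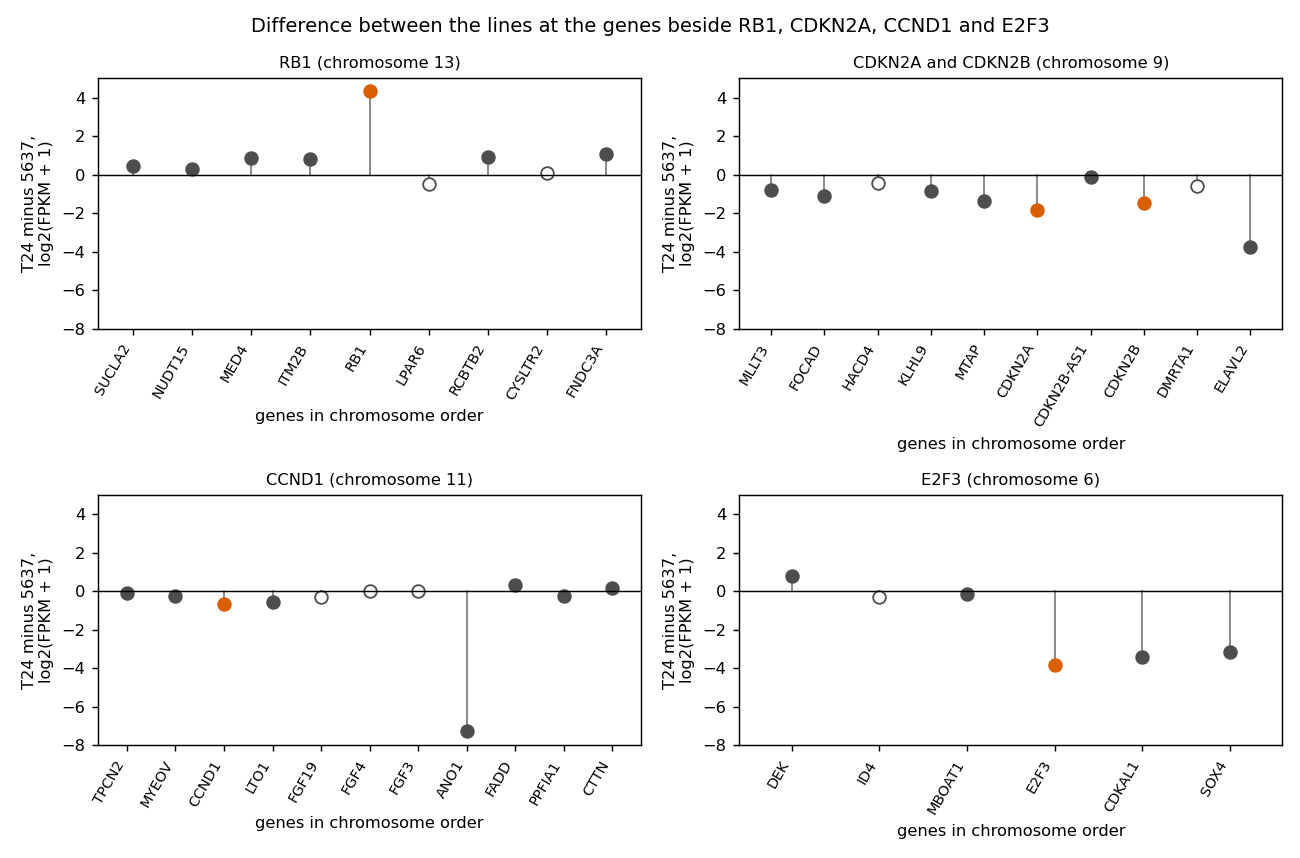
T24 minus 5637 difference, the mean of the treated and untreated pairs on the log2(FPKM + 1) scale, for genes in chromosome order around RB1, CDKN2A and CDKN2B, CCND1, and E2F3 (orange); open circles are genes that did not enter the fit. RB1 at 4.32 stands above its neighbours, and E2F3, CDKAL1 and SOX4 lie together below -3.

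No member at 1 FPKM or more differed by 2-fold between protodioscin-treated and untreated cells of either line. Most of these differences were smaller than those between the lines. For CDK4 they were larger, at -0.14 in T24 and -0.14 in 5637 against -0.086 between the lines. For CCND1 in T24 the difference was -0.44, near the -0.47 between the untreated lines. Of the 8 members at 1 FPKM or more in a T24 library, 0 differed by 1 or more on the log2 scale and 0 by 0.5 or more, where 0.484% and 3.26% of all 12193 genes compared did. Of the 7 such members in 5637, again 0 differed by 1 or by 0.5, where 0.388% and 2.12% of 12635 genes did. Each of these differences is between single libraries, without replicates and without a test. The median difference over all genes was 0.025 in T24 and 0.043 in 5637.

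The largest difference was that of CCND1 in T24, at 177 FPKM in treated and 239 FPKM in untreated cells, which is -0.44 on the log2 scale or 73.8% of the untreated level. Of the genes compared in T24, 355 (2.91%) had a difference this low or lower. In 5637 CCND1 was at 312 and 331 FPKM in treated and untreated cells (-0.083). CDK6 was lower in treated cells of both lines, by values of -0.23 in T24 and -0.16 in 5637, and CDK4 likewise by -0.14 in T24 and -0.14 in 5637. All 4 kinase differences were negative, in a setting where 56% of all genes compared in T24 and 61.5% of those in 5637 had a positive one. Over all members compared, 4 lay above and 4 below 0 in T24, and 2 above and 5 below 0 in 5637. A common decrease of the kinases was not tested.

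CDKN1B had a value above 0 in both lines, with 27.7 and 23.4 FPKM in treated and untreated T24 (0.24) and 14.0 and 12.6 FPKM in treated and untreated 5637 (0.14). CDKN2B was at 2.90 and 2.18 FPKM in treated and untreated T24 (0.29) and at 8.58 and 8.92 FPKM in treated and untreated 5637 (-0.051). The treated minus untreated difference of CDKN2A was 0.0135 in T24 and -0.14 in 5637, that of CCND3 was -0.029 in T24 and 0.21 in 5637, and that of RB1 was 0.056 in T24 and -0.080 in 5637. Apart from CDKN1B, these members had opposite signs in the lines, and RB1 was under 1 FPKM in 5637.

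In the fit over both lines, limma called 0 of the 8 members for treatment at an adjusted p below 0.05, as it called 0% of all 12893 genes. At an unadjusted p below 0.05 there were 3 members, against 9.52% of all genes. They were CCND1 (-0.26, SE 0.093, limma adjusted p = 0.505), CDK6 (-0.20, SE 0.071, adjusted p = 0.505) and CDKN1B (0.19, SE 0.072, adjusted p = 0.518). All 3 members had the same sign in both lines, as 57.6% of all genes had. A low p in this fit favours genes with like responses in both lines. The shared sign of these 3 members thus follows largely from their selection, and no conclusion is drawn from it. For CDK4 the effect was -0.14 (95% interval -0.29 to 0.0045, limma adjusted p = 0.528), and for RB1 -0.012 (-0.24 to 0.22, adjusted p = 0.976). The fit had a single residual degree of freedom, which rests on how far the lines, at their unequal doses, differed in response. The limma prior, taken from all genes in the fit, counted as 4.99 degrees of freedom and so weighed more in each variance.

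**Figure D5:**
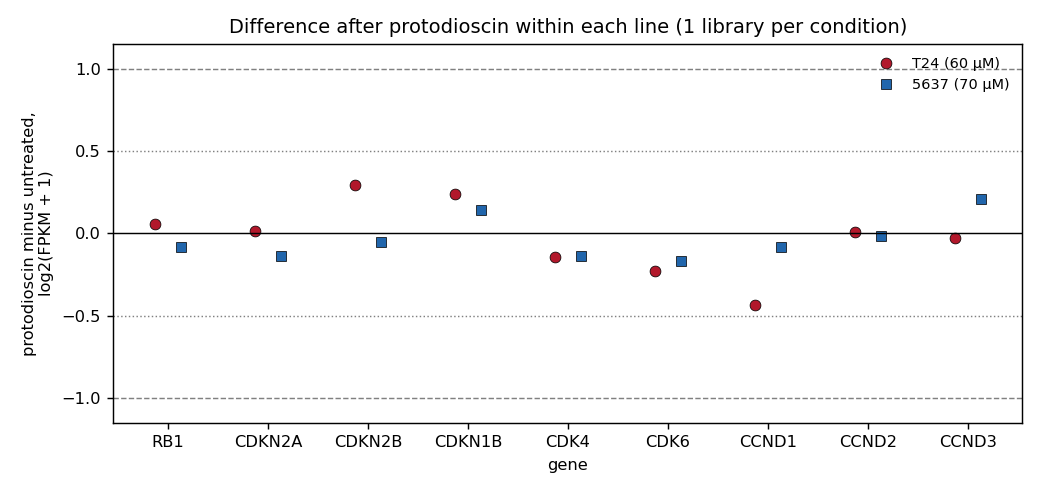
Protodioscin minus untreated difference on the log2(FPKM + 1) scale for each gene in T24 (circles, 60 µM) and 5637 (squares, 70 µM), 1 library per condition; dashed lines mark a difference of 1 and dotted lines 0.5. Every point lies within 0.5 of 0, with CCND1 in T24 lowest at -0.44 and CDKN2B in T24 highest at 0.29.

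Among the other inhibitors, CDKN1A, which encodes p21, was at 54.2 FPKM in treated and 30.4 FPKM in untreated T24 (0.82), and at 53.01 FPKM in treated and 56.9 FPKM in untreated 5637 (-0.10). CDKN2C was at 48.4 and 38.7 FPKM in treated and untreated T24 (0.32), and at 2.19 and 1.003 FPKM in treated and untreated 5637 (0.67); its limma treatment effect was 0.49 (adjusted p = 0.482). CDKN2D had values of 0.31 in T24 and 0.25 in 5637. Of the 16 E2F-regulated replication genes, 5 had a value above 0 in T24 and 14 in 5637. Of all genes compared, 56% did in T24 and 61.5% in 5637. The medians of the replication genes were -0.021 in T24 and 0.091 in 5637, against 0.025 and 0.043 over all genes. In 5637 the median of the replication genes was 0.033 with median-ratio scaling. No gene of these lists was called for treatment.

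Other E2F and cell-cycle genes differed little with treatment. E2F7, a repressing E2F, was at 23.9 FPKM in treated and 19.9 FPKM in untreated T24 (0.25), and at 19.6 FPKM in treated and 19.4 FPKM in untreated 5637. E2F6, also a repressor, differed by 0.20 in 5637, CCNE2 by 0.25 in 5637, CDK2 by 0.10 in T24 and 0.20 in 5637, and CDK7, the catalytic subunit of the CDK-activating kinase, by -0.22 in T24 and -0.072 in 5637. Among the chromosome neighbours, the widest differences were in T24. ITM2B, a membrane protein gene beside RB1, was at 40.7 FPKM in treated and 21.4 FPKM in untreated T24 (0.89), against 16.6 FPKM in both 5637 libraries. MYEOV, near CCND1, was at 2.96 FPKM in treated and 6.04 FPKM in untreated T24 (-0.83), and at 4.93 FPKM in treated and 5.81 FPKM in untreated 5637 (-0.20). The remaining neighbours MLLT3, KLHL9, FOCAD, RCBTB2 and LTO1 differed by at most 0.23 in either line, and ANO1 by -0.34 in 5637.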

How the data were processed

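Per the labels' protocols, total RNA of T24 and 5637 cells was made into Illumina TruSeq RNA v2 libraries, which do not mark strand, and sequenced as paired reads of 150 bases. The authors deposited FPKM per gene, 1 column per library; the tools Trimmomatic, HISAT2 and StringTie and the build GRCh38 are known per the submitters' processing notes; for their versions and settings, and for the annotation, the entry is "not given in the sources used here". The scaling to FPKM does not remove shifts made by a few abundant transcripts, and StringTie divides fragments of overlapping transcripts by an estimate. Read totals are unknown, so counting error was not computed.

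Values were taken as log2(FPKM + 1) (pandas 2.3.3, Python 3.11.15), which understates differences of low genes. Within a line, genes that reached 1 FPKM in 1 or both libraries were compared by size. Line and treatment effects came from limma 3.58.1 (R 4.3.3) over all 4 libraries with both terms. The fit had a trended prior and 1 residual degree of freedom. It held the 12893 genes that reached 1 FPKM in 2 or more libraries, with Benjamini-Hochberg adjustment over all of them. The fit was also run on simulated data whose noise was drawn from its own prior. That run therefore cannot show how the fit performs on these libraries. Names, positions and exon overlap came from a table of gene names and GENCODE 29. Named beyond the members are the 2 genes of each list with the largest difference per comparison, lists of up to 5 genes in full, and RBL1, RBL2, E2F1, CKS1B, RBX1, MCM7, CDKN2B-AS1, LPAR6 and the neighbours of E2F3, which were chosen after their values were seen, and the genes with the values closest to a member. The members and lists were chosen with earlier results of these data known. Some genes that this rule names are not reported here.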

Additional observations from a re-analysis of the deposited data

Results flagged for a closer look

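The protodioscin minus untreated difference on the log2(FPKM + 1) scale was examined for sign in the members and in the genes named for a treatment difference, where at least 1 library of each line reached 1 FPKM. It had opposite signs in T24 and 5637 for 17 of these genes, 3 of them among the 7 members at this level in both lines. RB1, under 1 FPKM in 5637, and genes named only for their line difference are not counted. With 1 library per group and unequal doses, the difference between the lines was not tested. Of all genes in the fit, 57.6% had the same sign in both, so opposite signs were common over all genes too. CDKN2A differed by 0.0135 in T24 and -0.14 in 5637, CDKN2B by 0.29 in T24 and -0.051 in 5637, and CCND3 by -0.029 in T24 and 0.21 in 5637. The widest gaps were those of CDKN1A, with 0.82 in T24 and -0.10 in 5637, and of ITM2B, with 0.89 in T24 and -0.0034 in 5637. Also above 0 in T24 and below 0 in 5637 were MNAT1 (0.18 and -0.012), CUL1 (0.017 and -0.17), MDM2 (0.27 and -0.17) and MED4 (0.17 and -0.044). Below 0 in T24 and above 0 in 5637 were E2F5 (-0.24 and 0.022), E2F1 (-0.0040 and 0.18), CDC25A (-0.13 and 0.10), FBXO31 (-0.10 and 0.085), CDC6 (-0.19 and 0.095), CDT1 (-0.13 and 0.027), MCM6 (-0.014 and 0.20) and RRM1 (-0.0080 and 0.17), each with the value in T24 before that in 5637. Many of these values lie near 0, and their signs have no replicate check.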

How the results depend on the processing

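There were 10 alternatives for each effect. They included pseudocounts of 0.1 and 5, TPM, median-ratio and quantile scaling, no filter and a filter at 5 FPKM. The others were fewer exon-sharing genes, no variance trend and 1 term fewer. The 7 members called between the lines were called in each fit that held them. CDK4 and every treatment effect of a member were called in none. The fit with fewer exon-sharing genes kept CDKN2A, CDK4, CDK6 and CCND1, whose partners lie on the opposite strand. That fit therefore did not test this overlap for these members. The highest limma adjusted p of a called member was 0.0427, for CCND1. The RB1 line difference ranged from 2.69 with a pseudocount of 5 to 5.48 with 0.1, and that of CDKN2B was -0.87 with a pseudocount of 5, against -1.47 with 1. The treatment effect of RB1 turned from -0.012 to 0.0135 with a pseudocount of 5 and was not called in either fit. With a pseudocount of 0.1, the pathway and neighbour genes at 2-fold numbered 1 in T24 (MYEOV) and 1 in 5637 (CDKN2C). With a pseudocount of 1 there were 0 in each. In FPKM without a pseudocount, MYEOV in treated T24 was at 49.0% of its untreated level. CDKN2C in treated 5637 was at 2.18 times its untreated level. A pseudocount narrows differences of low genes, and 1 does so more than 0.1. The other 56 counts stayed within 1.5 times their value. No paired analysis by replicate number was possible because the labels give none, and no library could be left out of the fit with both terms, since 3 libraries leave no residual degree of freedom. Within-line differences rest on 1 library per group, and RB1 in 5637 and CCND2 in both lines on few fragments.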

Other observations

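MDM2, the ubiquitin ligase that p14ARF inhibits, was at 21.3 and 17.6 FPKM in treated and untreated T24, and at 8.80 and 9.99 FPKM in treated and untreated 5637 (limma difference 0.97, adjusted p = 0.000557). MDM4, a relative of MDM2, was at 1.64 and 1.55 FPKM in treated and untreated T24, and at 1.99 and 1.97 FPKM in treated and untreated 5637.

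For the members that differed by 1 or more between the lines, the genes with the closest values were found by the smallest value, over the 4 libraries, of the largest difference in log2(FPKM + 1). For RB1 these were EEF1A2 (0.31) and IFIT2 (0.40), for CDKN2A IER3 (0.25) among those given here, for CDKN2B FAM3C2P (0.087) and HOXD11 (0.14), and for CDK6 FNBP1L (0.13) and OGG1 (0.15). With 4 libraries from 2 lines, this likeness is mostly that of level and line.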
